A study of Homo sapiens with 6 samples.

Results

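The genes described here are 10 components of the NRF2-KEAP1 pathway and of thiol redox chemistry, taken by name from the 62700 gene rows of one table: NFE2L2, KEAP1, NQO1, GCLC, GCLM, TXNRD1, SRXN1, HMOX1, OSGIN1 and GSR. Each was matched by its Ensembl ID, and all 10 were found. They were measured by RNA-seq in A549, a long-established epithelial cell line from a human lung adenocarcinoma, with 3 libraries carrying a control guide RNA (sgControl, genotype labelled WT) and 3 carrying a guide that targets H2AC19 (sgH2AC19), a replication-dependent histone H2A gene. All libraries came from the same line, grown in RPMI-1640 with fetal bovine serum, and no drug or oxidant is named for any of them. The labels do not say whether sgH2AC19 is 1 clone or a pool, or whether replicates were grown as separate cultures. The p-values therefore speak only of the spread among these libraries, and that spread may be technical.

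NRF2, the product of NFE2L2, is a transcription factor that switches on antioxidant and detoxification genes. KEAP1 is the adaptor that holds NRF2 and hands it to a CUL3 ubiquitin ligase for destruction, and oxidants or electrophiles that modify cysteines of KEAP1 let NRF2 escape. A549 is known to carry a mutant KEAP1 that restrains NRF2 poorly, and both groups were made in this line. NRF2 pairs with small MAF proteins on antioxidant response elements (AREs), whose core is searched for here as TGACNNNGC.

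The sequences below are the 120 bases directly before an annotated start site of TXNRD1, which fell, and of GCLM and KEAP1, which were not called, shown because these are the 3 members with an ARE core in the RefSeq promoter windows (GRCh38.p14). Each is written on the gene's own strand, 5′ to 3′, with matches to the core or its reverse complement in capitals. They lie at chr12:104286912-104287031 on the plus strand (TXNRD1), chr1:93909431-93909550 on the minus strand (GCLM) and chr19:10502772-10502891 on the minus strand (KEAP1).
TXNRD1: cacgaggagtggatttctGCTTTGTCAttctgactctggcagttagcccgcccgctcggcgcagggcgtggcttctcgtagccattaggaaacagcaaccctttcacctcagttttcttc
GCLM: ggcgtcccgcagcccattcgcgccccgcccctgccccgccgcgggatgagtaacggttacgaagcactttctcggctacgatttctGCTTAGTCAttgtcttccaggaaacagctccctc
KEAP1: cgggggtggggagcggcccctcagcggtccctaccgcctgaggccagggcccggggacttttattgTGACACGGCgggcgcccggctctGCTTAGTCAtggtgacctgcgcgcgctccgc

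RefSeq windows of 300 bases, 250 before and 50 after a start site, were at hand for 8 of the 10 members, with 11 windows in all. The core was found on either strand in 4 of these 11 windows, belonging to TXNRD1 (in both of its windows), GCLM and KEAP1, and in 13.3% of all 35116 promoter windows. The GCLM match and the match of KEAP1 nearest its start site are the same 9 letters, GCTTAGTCA on the gene's strand. TXNRD1 holds 3 matches. GCTTTGTCA, the match in the stretch shown, lies at chr12:104286930-104286938. The window of its other start site holds TGACTTCGC at chr12:104215680-104215688 and GCTCCGTCA at chr12:104215771-104215779. The related AP-1 site TGANTCA, bound by FOS and JUN proteins, was found in 1 of the 11 windows, that of OSGIN1, and in 7.71% of all windows. No core match overlapped an AP-1 match in the members. A match is a description of the letters, and AREs that lie outside these windows were not searched.

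The 6 libraries held 35681162 to 45738439 reads, as recovered from the spacing of the values. The targeted gene H2AC19 (ENSG00000288859) was listed at 0 FPKM in every library, as was its near-identical copy H2AC18, so it does not check the labels. Of 9 epithelial markers 6 reached 1 FPKM, with keratin 8 and keratin 18 above 220 FPKM throughout, while the lung lineage markers NKX2-1, SFTPB and SFTPC stayed under 0.2 FPKM. All 4 endothelial and all 4 leukocyte markers stayed under 0.2 FPKM, and the 4 fibroblast markers summed to 1.61 to 1.80 FPKM in sgControl and 2.44 to 2.90 in sgH2AC19. Transcripts of the mitochondrial genome made up 29.6% to 32.5% of all FPKM. In a principal component analysis sgH2AC19 replicate 3 stood apart from the other 2 libraries of its group on the second component, which held 18.2% of the variance.

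Among the members, NFE2L2 itself and the disulfide reductase genes TXNRD1 and GSR were lower in sgH2AC19. Their mean FPKM fell by 20.3% for NFE2L2, fell by 18.4% for TXNRD1 and fell by 11.3% for GSR. NQO1 was 8.67% higher but missed the threshold, and the other 6 were not called. In counts, 3 of the 10 fell and 0 rose (limma fit of log2(FPKM + 1), with p adjusted by Benjamini-Hochberg over 12871 genes and a threshold of 0.05), against 3 lower and 1 higher at an unadjusted p under 0.05 and 3 and 1 by voom on the recovered reads. Over all genes tested 23.1% were called, 11.0% as lower and 12.0% as higher. The 3 of 10 called members are near the share called in either direction. As falls alone they are 30.0% beside 11.0%, a difference that rests on few genes and was not tested. The median log2 fold change of the 10 was −0.09, beside −0.005 for all genes tested. The 2 groups did not overlap in 4 of the 10 members, where 43.2% of all genes tested had groups that did not overlap. Every member was above 1 FPKM in all 6 libraries, so none passed the filter through 1 group alone. The count moved with single control libraries, and so did the share of all genes tested that was called. Without sgControl replicate 1, 0 members and 13.1% of all genes tested were called. Without sgControl replicate 2 they were 1 and 12.0%, and with every gene above 0 FPKM in the test 1 and 4.2%.

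**Figure D1:**
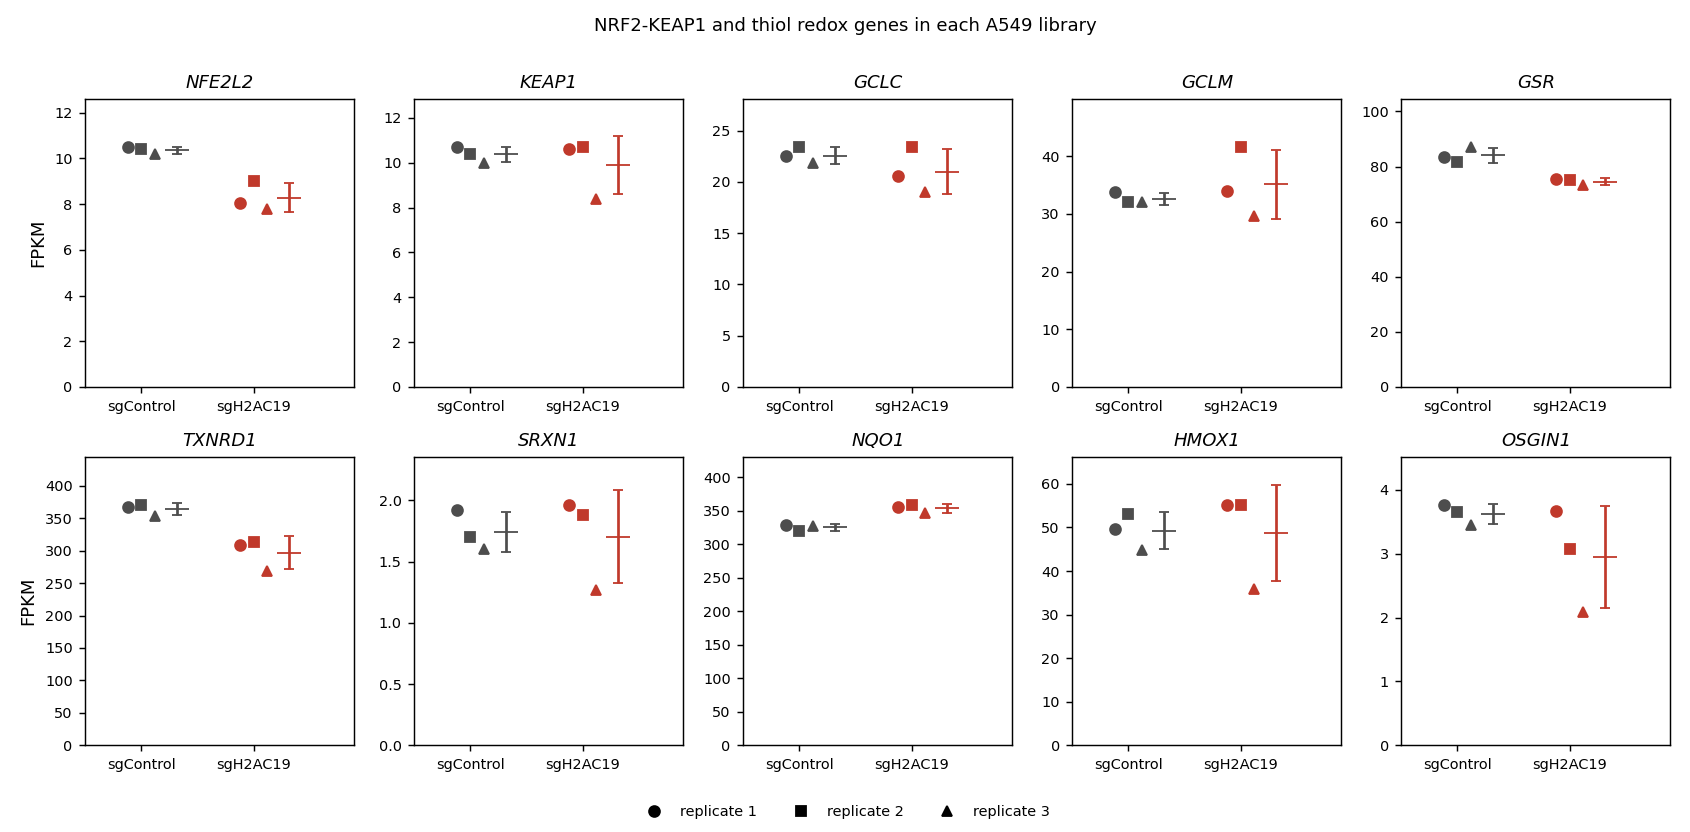
FPKM of the 10 genes in each library, with sgControl in grey and sgH2AC19 in red, marker shapes for replicates 1 to 3, and a bar with SD (n = 3) for each group mean; every axis starts at 0. The groups do not overlap for NFE2L2, GSR, TXNRD1 and NQO1, and sgH2AC19 replicate 3 (triangle) is the lowest of its group in all 10 panels.

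The sensor pair came first. NFE2L2 (ENSG00000116044, chromosome 2 from 177227595 to 177392697 on the minus strand in GENCODE 29, GRCh38) was at 10.5, 10.4 and 10.2 FPKM in sgControl replicates 1 to 3 and at 8.07, 9.01 and 7.77 in sgH2AC19 replicates 1 to 3. All sgH2AC19 libraries lay below all sgControl libraries. The means were 10.4 ± 0.158 and 8.28 ± 0.646 FPKM (SD, n = 3 each), or −0.30 on the log2 scale (SE 0.059, adjusted p = 0.0129 by limma). NFE2L2 was the only member still called when the test took in every gene above 0 FPKM (adjusted p = 0.0455). It lost its call by a small margin without sgControl replicate 1 (adjusted p = 0.0503). Other genes overlap the span of NFE2L2, the highest being AGPS on the opposite strand, at 6.4 to 7.17 FPKM. Whether the counting used strand is not given in the sources used here, and the part of shared reads was not tested.

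KEAP1 (ENSG00000079999, chromosome 19 from 10486120 to 10503741, minus strand) was at 10.7, 10.4 and 10.0 FPKM in sgControl and at 10.6, 10.7 and 8.39 in sgH2AC19. The groups overlapped, with sgH2AC19 replicate 3 alone below the controls. The log2 fold change was −0.07 with a 95% interval from −0.27 to 0.14 (adjusted p = 0.635), and it was 0.04 without that library. In sgControl the mean levels of NFE2L2 and KEAP1 were the same to 3 digits, 10.4 FPKM each, and did not differ beyond their spread. In sgH2AC19 NFE2L2 was below KEAP1 in every library.

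The reductases that return oxidised thiols to their reduced form were both lower. TXNRD1 (ENSG00000198431, chromosome 12 from 104215779 to 104350305, plus strand) encodes the cytosolic thioredoxin reductase, a selenoprotein that passes electrons from NADPH to thioredoxin. It was at 368, 370 and 354 FPKM in sgControl and at 309, 314 and 268 in sgH2AC19. Every sgH2AC19 library lay below every sgControl library, and replicate 3 was the lowest. The means were 364 ± 8.77 and 297 ± 25.4 FPKM (SD, n = 3 each), or −0.30 on the log2 scale (SE 0.065, adjusted p = 0.0185 by limma). It was no longer called without sgControl replicate 1 (adjusted p = 0.0607) or 2 (0.0664), or with every gene above 0 FPKM in the test (0.0895).

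Other genes lie within the TXNRD1 locus, and they were looked at after their values had been seen. The ribosomal protein pseudogene RPL18AP3 (348 to 415 FPKM), the gene EID3 (3.21 to 5.19 FPKM) and an antisense transcript, ENSG00000257732 (8.0 to 15.2 FPKM), have 0 exon bases in common with TXNRD1 in GENCODE 29. All 3 were lower in sgH2AC19, with log2 fold changes of −0.19 for RPL18AP3 (limma adjusted p = 0.0296), −0.40 for EID3 (0.0256) and −0.69 for ENSG00000257732 (0.00102). Values of a pseudogene are uncertain, since it shares reads with its parent gene, and whether the counting used strand is not given in the sources used here. The calls of RPL18AP3 and EID3 were lost with every gene above 0 FPKM in the test, without any 1 sgControl library, and without sgH2AC19 replicate 2 (RPL18AP3) or 1 (EID3).

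GSR (ENSG00000104687) encodes glutathione reductase, which uses NADPH to turn glutathione disulfide back into glutathione. It was at 83.3, 81.8 and 87.1 FPKM in sgControl and at 75.3, 75.1 and 73.3 in sgH2AC19. The 3 sgH2AC19 libraries lay close together, all below the controls. The means were 84.1 ± 2.74 and 74.6 ± 1.12 FPKM (SD, n = 3 each), or −0.17 on the log2 scale (SE 0.0408, adjusted p = 0.0247 by limma). This was the least stable of the 3 calls. It was lost with every gene above 0 FPKM in the test (adjusted p = 0.0566) and without any 1 library other than sgH2AC19 replicate 3 (0.0517 to 0.0978).

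SRXN1 (ENSG00000271303, chromosome 20 from 646615 to 653370, minus strand) encodes sulfiredoxin, which repairs over-oxidised peroxiredoxins. It was the lowest member, at 1.92, 1.70 and 1.6 FPKM in sgControl and 1.96, 1.88 and 1.27 in sgH2AC19. The groups overlapped and the log2 fold change was −0.03 (95% interval −0.29 to 0.24, adjusted p = 0.894). These values rest on 122 to 227 recovered reads per library, the fewest of any member, whereas TXNRD1 rested on 68261 to 98167.

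**Figure D2:**
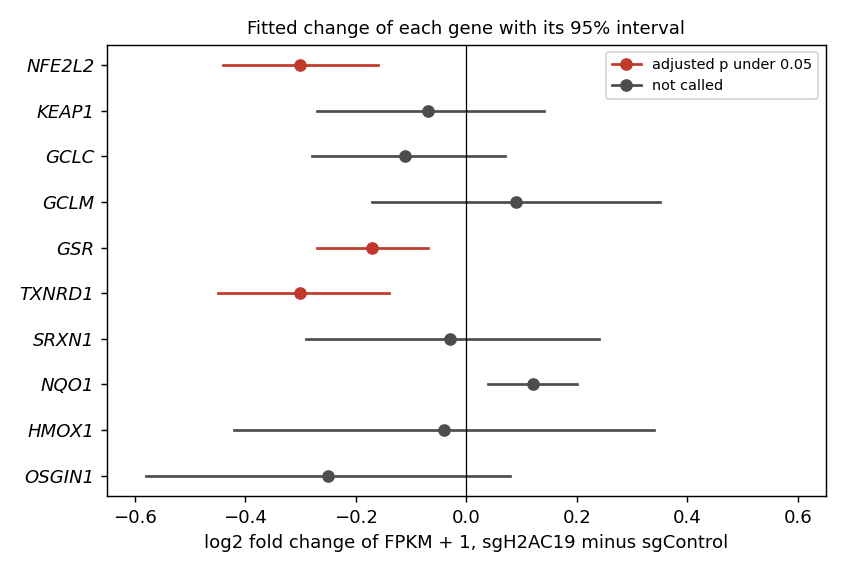
Fitted log2 fold change of FPKM + 1 (sgH2AC19 minus sgControl) of each gene, as a point with its 95% interval from the limma fit; red marks an adjusted p under 0.05. NFE2L2 and TXNRD1 sit at −0.30 and GSR at −0.17, while the interval of NQO1, from 0.04 to 0.20, lies above 0 although its adjusted p is 0.0512.

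The genes of glutathione synthesis were not called. GCLC and GCLM encode the catalytic and modifier subunits of glutamate-cysteine ligase, the rate-limiting enzyme of glutathione synthesis. GCLC (ENSG00000001084, chromosome 6 from 53497341 to 53616970, minus strand) was at 22.5, 23.4 and 21.8 FPKM in sgControl and at 20.6, 23.4 and 19 in sgH2AC19 (log2 fold change −0.11, 95% interval −0.28 to 0.07, adjusted p = 0.347). GCLM (ENSG00000023909, chromosome 1 from 93885205 to 93909456, minus strand) was at 33.8, 32.0 and 32.0 FPKM in sgControl and at 34.0, 41.6 and 29.7 in sgH2AC19 (0.09, 95% interval −0.17 to 0.35, adjusted p = 0.591). In both genes the sgH2AC19 libraries spread further than the controls and overlapped their range, with replicate 2 the highest and replicate 3 the lowest. Without replicate 2 the log2 fold change of GCLM was −0.04.

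The remaining members are enzymes and effectors that NRF2 induces. NQO1 (ENSG00000181019, chromosome 16 from 69706996 to 69726951, minus strand) encodes a quinone reductase often used as a readout of NRF2 activity. It was at 329, 319 and 327 FPKM in sgControl and at 356, 358 and 346 in sgH2AC19. Every sgH2AC19 library lay above every control. The means were 325 ± 5.41 and 353 ± 6.30 FPKM (SD, n = 3 each), a difference of 0.12 on the log2 scale (SE 0.036, adjusted p = 0.0512 by limma). It passed the threshold with median-ratio scaling (adjusted p = 0.0367), with a pseudocount of 0.1 (0.0495), with voom (0.0491) and without sgH2AC19 replicate 3 (0.0276). It missed it further with the replicate block (0.0953), with every gene above 0 FPKM in the test (0.194) and without any 1 of the other 5 libraries (0.109 to 0.164).

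HMOX1 (ENSG00000100292, chromosome 22 from 35380361 to 35394214, plus strand) encodes heme oxygenase 1, which breaks down heme and is held in check by the repressor BACH1. It was at 49.7, 53.2 and 44.8 FPKM in sgControl and at 55.1, 55.1 and 35.9 in sgH2AC19. In sgH2AC19 2 libraries lay above the controls and replicate 3 below them. The log2 fold change was −0.04 (95% interval −0.42 to 0.34, adjusted p = 0.895), and 0.16 without replicate 3. OSGIN1 (ENSG00000140961, chromosome 16 from 83948282 to 83966332, plus strand), an oxidative stress-induced growth inhibitor, was at 3.76, 3.66 and 3.45 FPKM in sgControl and at 3.67, 3.08 and 2.09 in sgH2AC19. Replicate 1 lay within the control range and the other 2 below it, and the log2 fold change was −0.25 (95% interval −0.58 to 0.08, adjusted p = 0.24).

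By level, which FPKM gives per gene length, the members span a wide range. Order and rank between genes depend on the lengths used, as for NFE2L2 and KEAP1 above. In sgControl the order was TXNRD1, NQO1, GSR, HMOX1, GCLM, GCLC, then NFE2L2 and KEAP1, then OSGIN1 and SRXN1, and apart from NFE2L2 and KEAP1 the ranges of neighbours over the 3 libraries did not overlap. TXNRD1 ranked 71 and NQO1 80 of the 12871 genes tested by mean level, whereas NFE2L2 ranked 3828 and SRXN1 10802. In sgH2AC19 the first 2 changed places, with NQO1 at 346 to 358 FPKM above TXNRD1 at 268 to 314. Within a library, where scaling between libraries cancels, TXNRD1 over NQO1 was 1.12, 1.16 and 1.08 in sgControl and 0.868, 0.879 and 0.774 in sgH2AC19. This ratio was chosen after the values had been seen. As TXNRD1 was lower and NQO1 higher in every sgH2AC19 library, the ratios of the groups could not overlap. The two-sided exact permutation p was therefore 0.1, the smallest that 3 against 3 allows (0.1 after Benjamini-Hochberg adjustment over 3 ratios).

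A single library set much of the spread. In sgH2AC19 replicate 3 each of the 10 members was at its lowest within the group, and 9 of the 10, all but NQO1, were at their lowest of all 6 libraries. Over all genes tested replicate 3 was the lowest of its group in 47.1% and the lowest of all libraries in 27.6%. Set against the sgControl mean on the log2(FPKM + 1) scale, the median member of sgH2AC19 replicate 1 was at 0.02, that of replicate 2 at 0.05 and that of replicate 3 at −0.27. The median of all genes tested was at 0.01, 0.01 and −0.03 in the same libraries. Without replicate 3 the members fell in 3 cases (NFE2L2, TXNRD1 and GSR) and rose in 1 (NQO1), with a log2 fold change of −0.26 for NFE2L2 and −0.22 for TXNRD1. The part that replicate 3 has in the calls of the full comparison was not tested beyond this.

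**Figure D3:**
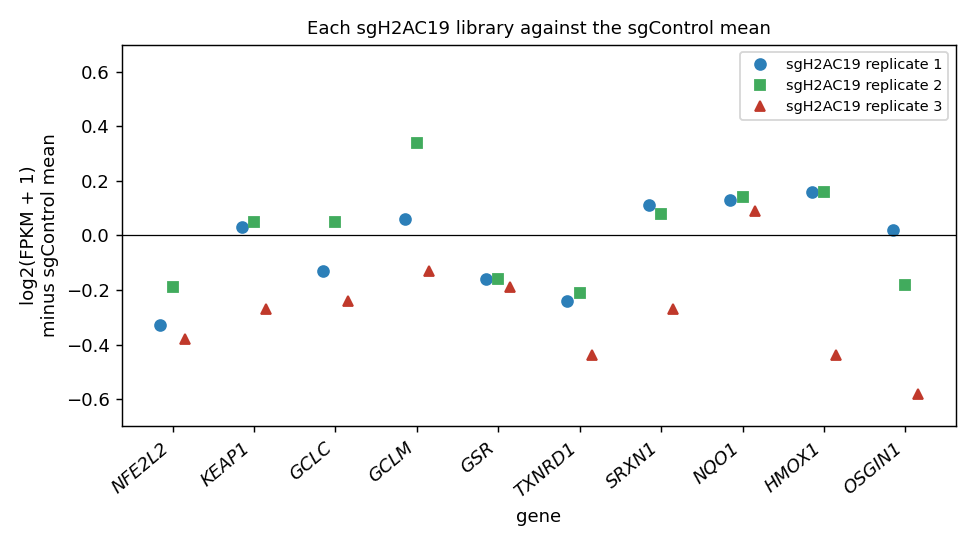
Difference of log2(FPKM + 1) from the sgControl mean for each gene (x axis) in sgH2AC19 replicates 1 to 3. Replicate 3 (red triangles) is lowest for every gene, from −0.58 for OSGIN1 to 0.09 for NQO1, while replicates 1 and 2 lie on both sides of 0.

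Of the proteins that act on or with NRF2, 17 of 18 listed genes were tested. Limma called 5 as lower (29.4%, where 11.0% of all genes tested were) and 0 as higher. There were 8 lower and 3 higher at an unadjusted p under 0.05 and 6 and 0 by voom. The median log2 fold change was −0.01. NFE2L3, which encodes a relative of NRF2, went from 6.02 ± 0.117 to 4.03 ± 0.125 FPKM (SD, n = 3 each; log2 fold change −0.48, limma adjusted p = 0.0012). The small MAF gene MAFF, whose product pairs with NRF2 on AREs, went from 5.41 ± 0.449 to 3.49 ± 0.21 FPKM (−0.51, adjusted p = 0.00321). BACH1, the repressor that competes with NRF2 for AREs, went from 15.0 ± 1.94 to 10.8 ± 0.297 FPKM (−0.44, adjusted p = 0.0116). The falls therefore include a partner, a relative and a repressor of NRF2 alike. RBX1 (−0.23, limma adjusted p = 0.0305) and DPP3 (−0.21, 0.0292) were also called as lower. The other small MAF genes MAFG (−0.21, adjusted p = 0.121) and MAFK (0.22, 0.285) and the ligase scaffold CUL3 (0.15, 0.116) were not called. The groups did not overlap for MAFG, which was lower, and CUL3, which was higher, as for 43.2% of all genes tested. SQSTM1, which encodes the autophagy receptor p62 that draws KEAP1 away from NRF2, was at 97.3 ± 4.77 and 69.4 ± 16.1 FPKM (−0.51, adjusted p = 0.0582), with sgH2AC19 replicate 3 at 50.9 FPKM. It was chosen after its values had been seen. It was called with the replicate block (−0.51, adjusted p = 0.0288), by voom (−0.51, 0.0146), without sgH2AC19 replicate 1 (−0.63, 0.0465) and without sgH2AC19 replicate 3 (−0.30, 0.00811). Without sgH2AC19 replicate 3 the counts in this list were 6 lower and 3 higher. They were 3 and 0 without sgControl replicate 3, and 2 and 0 with every gene above 0 FPKM in the test, where BACH1 was no longer called (adjusted p = 0.0518).

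A further list held 30 other genes that NRF2 is known to induce. Of 28 tested, limma called 9 as higher (32.1%, where 12.0% of all genes tested were) and 0 as lower, with 19 not called, beside 14 and 0 at an unadjusted p under 0.05, 14 and 0 by voom and a median log2 fold change of 0.11. ME1, the cytosolic malic enzyme that supplies NADPH, went from 32.2 ± 1.52 to 50.8 ± 4.66 FPKM (SD, n = 3 each; log2 fold change 0.64, limma adjusted p = 0.00168). EPHX1, a microsomal epoxide hydrolase, went from 26.7 ± 2.10 to 34.5 ± 1.77 FPKM (0.36, adjusted p = 0.0103), and the export pump gene ABCC3 from 71.8 ± 2.85 to 86.7 ± 3.90 FPKM (0.27, adjusted p = 0.0107). The others that rose were AKR1C2, PIR, CES1, TKT, ABCC2 and AKR1B10, at 0.19 to 0.44. None of these 6 was called with every gene above 0 FPKM in the test, and of them AKR1C2 alone kept its call whichever library was left out. AKR1C2 and its close copy AKR1C1 can share reads, and AKR1C1 had a log2 fold change of −0.26 (adjusted p = 0.135), so both values are uncertain. The cystine transporter gene SLC7A11 was at 47.5 ± 1.67 and 41.2 ± 7.92 FPKM and was not called (adjusted p = 0.242), though it fell by 0.35 without sgH2AC19 replicate 2 (0.0443). The count of rises went from 9 to 3 with every gene above 0 FPKM in the test, to 5 and 4 without sgControl replicates 2 and 3, and to 14 without sgH2AC19 replicate 3.

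In the thioredoxin, peroxiredoxin and glutaredoxin system 5 of 19 tested genes fell (26.3%) and 2 rose (10.5%), with a median of −0.04. Over all genes tested 11.0% fell and 12.0% rose. By voom 5 fell and 2 rose in this list. TXN, the thioredoxin that TXNRD1 reduces, fell alongside it, from 422 ± 4.6 to 369 ± 18.5 FPKM (SD, n = 3 each; log2 fold change −0.20, limma adjusted p = 0.022). The mitochondrial reductase gene TXNRD2 went from 2.10 ± 0.166 to 1.52 ± 0.067 FPKM (−0.30, adjusted p = 0.0206). The peroxiredoxin genes went both ways. PRDX1 fell by 0.25 (adjusted p = 0.0313) and PRDX5 by 0.27 (0.0116), whereas PRDX4, the peroxiredoxin of the endoplasmic reticulum, rose from 28.9 ± 2.52 to 50.0 ± 3.64 FPKM (0.77, adjusted p = 0.00131). MSRB3, a methionine sulfoxide reductase, rose by 0.38, and SESN2, a stress-induced sestrin, fell by 0.35. TXN and PRDX1 fall outside the naming rule and were picked with their values known. With every gene above 0 FPKM in the test TXN, PRDX1, PRDX5 and TXNRD2 were not called. TXN was also lost without any 1 sgControl library or sgH2AC19 replicate 2, PRDX1 without sgControl replicate 1 or 3 or sgH2AC19 replicate 1 or 2, and TXNRD2 without sgControl replicate 1 or 3 or sgH2AC19 replicate 2. The count of calls went from 7 to 4 without sgControl replicate 1 or 3 or without sgH2AC19 replicate 2.

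In the list of glutathione synthesis, use and turnover beyond the members 25 genes were tested. Of these limma called 3 as lower (12.0%) and 0 as higher. The share of falls was near the 11.0% over all genes tested. There were 7 lower and 0 higher at an unadjusted p under 0.05 and 4 and 0 by voom, with a median of −0.09. CHAC1, an ATF4-induced enzyme that degrades glutathione, went from 14.8 ± 1.73 to 8.16 ± 1.15 FPKM (SD, n = 3 each; log2 fold change −0.79, limma adjusted p = 0.00362). The omega-class transferase gene GSTO1 went from 54.9 ± 0.834 to 41.9 ± 2.03 FPKM (−0.38, adjusted p = 0.0023), and the glyoxalase gene GLO1 from 96.5 ± 2.86 to 79.4 ± 4.69 FPKM (−0.28, adjusted p = 0.0114). The synthetase gene GSS, which finishes glutathione after GCLC and GCLM, was at 10.1 ± 0.121 and 9.44 ± 0.622 FPKM and was not called.

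Genes that supply NADPH, in the cytosol or in mitochondria, formed a list of 13. The list is not limited to supply for TXNRD1, GSR and NQO1. At an unadjusted p under 0.05 there were 6 higher and 2 lower, by voom 6 and 1, and the median was 0.10. Limma called 4 as higher (30.8%, where 12.0% of all genes tested were) and 0 as lower. Besides ME1 these were IDH2, which rose from 15.7 ± 0.668 to 19 ± 1.38 FPKM (SD, n = 3 each; log2 fold change 0.26, limma adjusted p = 0.0254), NNT at 0.19 and ME3 at 0.24. IDH2, NNT and ME3 were not called with every gene above 0 FPKM in the test. MTHFD2, a mitochondrial folate enzyme, was not called (−0.22, adjusted p = 0.0562) but was called as lower by voom, with either scaling, with the replicate block (3 higher and 1 lower) and without sgH2AC19 replicate 2 (2 and 1). ME1 alone accounted for the count of 1 in 4 of the fits that left out a library (each sgControl library, and sgH2AC19 replicate 1).

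Among superoxide, catalase, heme and iron genes limma called 1 of 11 as higher (9.09%, where 12.0% of all genes tested were) and 0 as lower. There were 3 higher and 1 lower at an unadjusted p under 0.05 and 3 and 0 by voom, with a median of 0.03. The gene called by limma was FECH, the ferrochelatase that completes heme. It went from 4.17 ± 0.301 to 5.34 ± 0.416 FPKM (SD, n = 3 each, log2 fold change 0.29, limma adjusted p = 0.0235). Its call was lost without sgControl replicate 2 or 3, without sgH2AC19 replicate 1 or 2, and with every gene above 0 FPKM in the test. Of 8 listed genes for the machinery that inserts selenocysteine, which TXNRD1 needs, 6 were tested. Limma called 0 of them, where 23.1% of all genes tested were called, and voom called 0. At an unadjusted p under 0.05 there were 0 higher and 1 lower. PSTK, left out by the filter, was at 1.11, 0.976 and 1.13 FPKM in sgControl and at 0.715, 0.82 and 0.848 in sgH2AC19. The direction and call of each list can be read from the plot of fold changes by list.

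**Figure D4:**
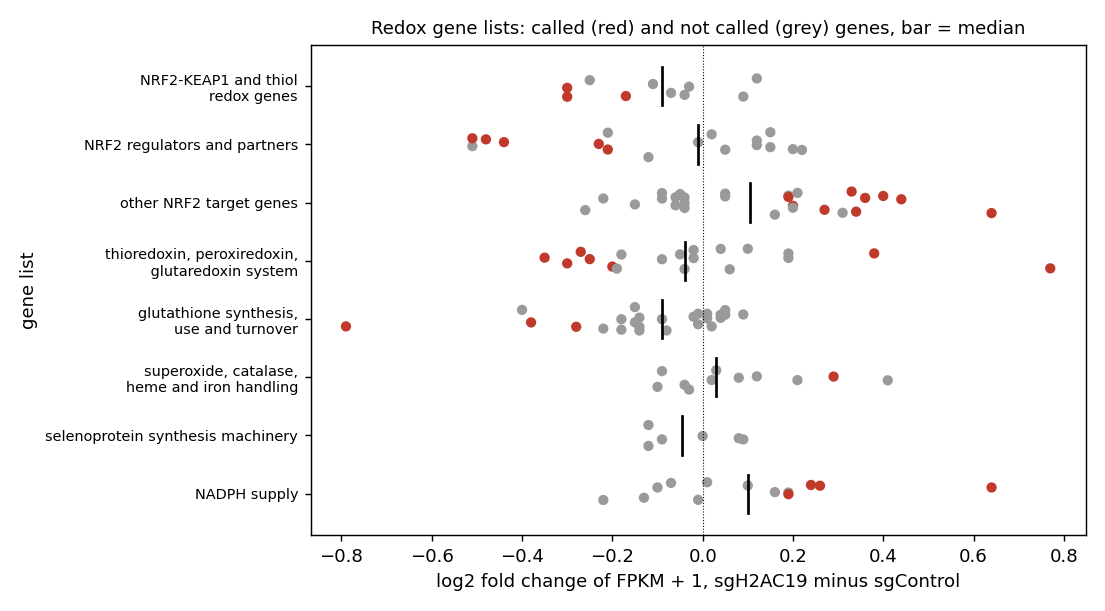
Log2 fold change of FPKM + 1 (sgH2AC19 minus sgControl) of every tested gene in 8 redox gene lists, with called genes in red, genes not called in grey and the list's median as a black bar; the vertical scatter within a list carries no meaning. Called genes lie to the left for the 10 genes described here (NFE2L2, TXNRD1 and GSR) and to the right for the 9 called targets among the other NRF2 target genes.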

How the data were processed

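Total RNA of A549 cells was made into 6 mRNA-seq libraries, per the labels' protocols, 3 for each of the sgControl and sgH2AC19 guides. The authors deposited 1 table of FPKM values, per the file headers, with 1 column for each library. Which aligner, counter and gene annotation were used is not given in the sources used here. The submitters' processing notes name the mouse builds GRCm38 and mm10, yet all 62700 gene IDs matched human symbols. The sgNC columns were read as sgControl and the sgH2AC columns as sgH2AC19, by their number.

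The 12871 genes that reached 1 FPKM in 3 or more libraries were compared on log2(FPKM + 1) with limma 3.58.1 (R 4.3.3, mean-variance trend, two-sided, Benjamini-Hochberg adjustment over all genes tested, threshold 0.05). Fold changes on this scale understate changes of low genes. Read totals were recovered from the spacing of the values and GENCODE 29 gene lengths, and 3759 tested genes gave whole reads at the annotated length and 9110 at the shortest length that did, within 0.001 reads. Alternatives were a pseudocount of 0.1, 2 other filters, 2 scalings, the replicate number as a block, leaving out each library and, added after the data were seen, voom on the recovered reads.

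The members and lists were chosen with earlier results of these data known. Named beside the members were, per list, up to 3 called genes each way with the smallest adjusted p, and the 3 genes most like the called member that changed most. Genes named outside this rule were picked with their values known. They were SQSTM1, MAFG, MAFK, CUL3, RBX1, DPP3, TXN, PRDX1, SLC7A11, AKR1C1, GSS, ME3, MTHFD2 and PSTK. The other called NRF2 targets, the genes in the TXNRD1 locus and AGPS were picked in the same way. The fit was tested on simulated data. Other steps used Python 3.11.15.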

Additional observations from a re-analysis of the deposited data

How the results depend on the processing

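Counting error is largest for SRXN1 among the members, which has the fewest reads, and with 3 libraries a group the calls of small changes moved with single libraries. The count of all called genes was 2967, and it was 1553 over all genes above 0 FPKM and 1513 to 3429 when 1 library was left out. Among the members 3 were called, 1 over all genes above 0 FPKM and 0 to 4 without 1 library. NFE2L2 stayed at −0.35 to −0.26 without 1 library. TXNRD1 stayed at −0.34 to −0.22 and was at −0.30 (adjusted p = 0.0895) over all genes above 0 FPKM. GSR stayed at −0.19 to −0.14 and was at −0.17 over all genes above 0 FPKM (adjusted p = 0.0566). NQO1 was at 0.12 with median-ratio scaling, a pseudocount of 0.1 and voom, each past the threshold, and at 0.11 to 0.13 without 1 library. Directions turned when a library was left out for KEAP1 (−0.12 to 0.04), GCLM (−0.04 to 0.20), SRXN1 (−0.10 to 0.10) and HMOX1 (−0.14 to 0.16), none of them called.

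The share of all genes tested that was called moved with the settings. It was 23.1% in the limma fit, 4.2% over all genes above 0 FPKM, 12.0% to 27.0% without 1 library and 27.5% by voom. Called genes in the lists moved as follows. Over all genes above 0 FPKM, where the adjustment covers 36938 genes, they were 2 for NRF2 regulators, 3 for other NRF2 targets, 3 for the thioredoxin system, 0 for the superoxide and heme list and 1 for NADPH supply. By voom they were 14 for other NRF2 targets, 3 for the superoxide and heme list and 7 for NADPH supply. With median-ratio scaling the superoxide and heme list had 2. Without 1 library they were 3 to 9, 4 to 14, 4 to 7, 0 to 3 and 1 to 6 for those 5 lists in the same order. Among 37 named genes that are no members 0 changed direction while called, and 16 stayed on their side of the threshold under every alternative run. For the others of the 37 the cause was not tested. MAFG, MAFK, CUL3, RBX1, DPP3, PSTK and AGPS are not among the 37.

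With the replicate number as a block 2729 genes were called, 2 of them members, and GSR was at −0.17 with an adjusted p of 0.0524. The labels give no pairing, and deviations of same-numbered libraries correlated at 0.0524, 0.0346 and 0.0602 for numbers 1 to 3, in each case more than those of different numbers.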

Other observations

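By the rule for likeness, the genes whose log2(FPKM + 1) followed NFE2L2 most closely over the 6 libraries were SDCBP, which encodes the adaptor syntenin (Pearson r = 0.9943), UQCC5 (0.9933) and SSR3, a subunit of the translocon-associated complex (0.993). SDCBP was at 85.8, 85.0 and 82.7 FPKM in sgControl and at 68.0, 73.5 and 62.9 in sgH2AC19, which is the order of libraries seen for NFE2L2 in both groups. With 6 libraries that fall into separate groups such values are a description, and 287 genes had an r above 0.95. UQCC5 lay near the filter, at 1.11 to 1.53 FPKM, and was not called (limma adjusted p = 0.0823). SSR3 was called as lower (limma adjusted p = 0.032) but not with every gene above 0 FPKM in the test (0.0748).

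The ratio of GCLM to GCLC, which does not depend on scaling between libraries, was 1.5, 1.37 and 1.47 in sgControl and 1.65, 1.78 and 1.56 in sgH2AC19. The groups did not overlap, although neither gene was called on its own (two-sided exact permutation p = 0.1, adjusted p = 0.1 over 3 ratios, the smallest that 3 against 3 allows). GSR over NQO1 was 0.253, 0.256 and 0.266 in sgControl and 0.212, 0.210 and 0.212 in sgH2AC19, with the same p-values. GSR was lower and NQO1 higher in every sgH2AC19 library, so the groups could not overlap in this ratio. All 3 ratios were chosen after the values had been seen.

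Within its group sgH2AC19 replicate 3 was the lowest of the 3 libraries in 22 of 28 other NRF2 target genes and 13 of 17 NRF2 regulators. It was also the lowest in 9 of 11 superoxide and heme genes, 5 of 6 selenocysteine machinery genes and 8 of 13 NADPH supply genes. The counts were 9 of 19 in the thioredoxin system and 9 of 25 in the glutathione list. The share over all genes tested was 47.1%, and these counts, which do not measure how far it lay below, were not compared between lists by a test.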
